A study of Mus musculus with 8 samples.

Results

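Nuclei with a high level of the transitional keratin programme, and without a high level of type II or type I cell genes, were described in cultures of mouse lung alveolar epithelium. They numbered 1167 of the 7168 nuclei with at least 1000 UMIs (molecule tags, each standing for a captured RNA), or 16.3% (exact Clopper-Pearson 95% interval 15.4 to 17.2), and 7224 nuclei were deposited in all. They were chosen by their own RNA counts. For each nucleus the UMIs per 10000 were summed for 3 programmes of 5 genes each: the keratin programme (Krt8, Krt18, Krt19, Cldn4, Sfn), a type II programme (Sftpb, Napsa, Abca3, Lamp3, Slc34a2) and a type I programme (Ager, Hopx, Rtkn2, Clic5, Lmo7). A nucleus was a member when it lay in the top 25% of the keratin sum and below the top 25% of the other two sums, had under 5 Sox9 UMIs, and had under 50 UMIs per 10000 from the airway genes Scgb3a1 and Bpifa1. These are called keratin-high nuclei below, and the 6001 remaining nuclei with at least 1000 UMIs are called the other nuclei.

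Type II alveolar cells (ATII) make surfactant and act as progenitors of the lung's gas exchange surface, where flat type I cells (ATI) cover most of the area. In injured mouse lung, ATII cells on their way to ATI cells are known to pass through a state rich in simple epithelial keratins, with features of stretch, p53 activity and matrix contact. Krt8, Krt18 and Krt19 code for the keratins of simple epithelia, Cldn4 for a tight junction claudin, and Sfn for stratifin, a 14-3-3 protein known as a p53 target.

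The cells were grown as alveolarspheres, hollow balls of epithelium, from ATII cells of young and old mice in medium free of serum and feeder cells. On day 9 they received an adeno-associated virus (AAV9) that carried either Sox9 with Cre recombinase (labelled Sox9Cre, Sox9 overexpression) or Cre alone (labelled Cre, control), followed by 4 days in a medium that drives ATI differentiation. Nuclei of sorted tdTomato-positive cells then gave RNA and open chromatin (ATAC) from the same nucleus. The labels list 8 samples, 2 each for Sox9-Cre RNA, Sox9-Cre ATAC, Cre RNA and Cre ATAC. All groups therefore share Cre, the virus and the differentiation medium. The promoter of the Sox9 transgene, the number of animals and the age behind each sample are not stated in the labels.

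The counts came as 1 pooled matrix per assay, and the 4 prefixes of its barcodes could not be linked to the labelled samples. Each prefix is treated as a library (A, B, C or D), which is not a group of the study, so Sox9-Cre and Cre nuclei were not compared. Because nuclei could not be assigned to the labelled replicates, the pooled matrix was treated as 1 sample and no test was run, and intervals cover counting error only. Keratin-high nuclei were 195 of 1253 nuclei (15.6%), 149 of 760 (19.6%), 458 of 3228 (14.2%) and 365 of 1927 (18.9%) over libraries A to D. They held 15621372 UMIs, and the other nuclei 72704852. The median nucleus had 11971 UMIs, 4003 genes and 10353 ATAC counts among keratin-high nuclei, and 10926 UMIs, 3766 genes and 9039 ATAC counts among the other nuclei. The median mitochondrial share was 5.51% in keratin-high nuclei and 5.81% in the other nuclei. Of 40 nuclei whose barcode sequence occurred in more than 1 library, 4 were keratin-high.

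The libraries differed in Sox9. Keratin-high nuclei, which the rule limits to 4 or fewer Sox9 UMIs, held 3, 6, 276 and 202 Sox9 UMIs over libraries A to D, and the other nuclei 17, 8, 4013 and 2152. Libraries C and D thus held nearly all Sox9 RNA, in keratin-high and other nuclei alike. Every comparison below was therefore made inside each library and then combined.

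The keratin sum that chose the nuclei had a median of 67.3 UMIs per 10000 in keratin-high nuclei (38.4 to 510) and 11.6 in the other nuclei. The threshold was 38.4, and the 10 members just inside it lay between 38.4 and 39.0, while the 10 nuclei just outside, with all other conditions met, lay between 38.1 and 38.4. Of 216 candidate nuclei within 10% of the threshold 104 were members, so the score had no gap at the threshold and the class is a range cut from it. Whether the class is a separate type was not tested. Its type II sum was low, with a summed level of 8.74 per 10000 in keratin-high nuclei and 68.3 in the other nuclei. The summed type I level was 46.2, 43.3, 40.8 and 38.8 per 10000 in keratin-high nuclei of libraries A to D, against 70.7, 71.2, 48.1 and 50.1 in the other nuclei, which still hold the nuclei richest in type I genes. The median nucleus of libraries A and B was lower, with 47.2 and 43.4 in keratin-high nuclei against 68.5 and 62.6 in the other nuclei, while that of C and D was slightly higher, with 40.2 and 35.4 in keratin-high nuclei against 34.0 and 34.4 in the other nuclei. Of the 1792 nuclei in the top 25% of the keratin sum, 532 (29.7%) were also in the top 25% of the type I sum and 13 (0.725%) also in that of the type II sum.

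Each of the 5 keratin programme genes was higher in keratin-high nuclei in every library, as the choice of nuclei fixes. Krt8 had 33.9, 36.7, 37.5 and 37.6 UMIs per 10000 in keratin-high nuclei of libraries A to D, against 9.64, 9.44, 8.11 and 9.12 in the other nuclei. Cldn4 had 7.21, 7.98, 6.23 and 8.60 UMIs per 10000 in keratin-high nuclei, against 1.33, 1.24, 0.978 and 1.41 in the other nuclei, the largest ratio of the 5 (6.12, stratified by library). The libraries lay close together within each class and far apart between the classes. UMIs of all 5 genes were found in 74.4% of keratin-high nuclei and in 18.5% of the other nuclei, among them 3.44% of the nuclei high in type II genes only. To see how far a gene's level rests on its own use in the rule, nuclei were also chosen by the other 4 keratin genes. The ratio was then 3.93 for Krt8, 4.03 for Krt18, 3.49 for Krt19, 4.91 for Cldn4 and 4.07 for Sfn, against 4.17, 4.20, 3.87, 6.12 and 4.64 under the full rule. These choices shared 90.5% (Krt8) to 97.6% (Sfn) of their nuclei with the full rule, and the type II and type I limits stayed in place. The ratios therefore describe nearly the same nuclei and are not separate support for the programme. The label fits the chosen keratin genes by construction, and 17 of 25 tested genes of a list of other transitional genes, described below, were also called higher.

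**Figure D1:**
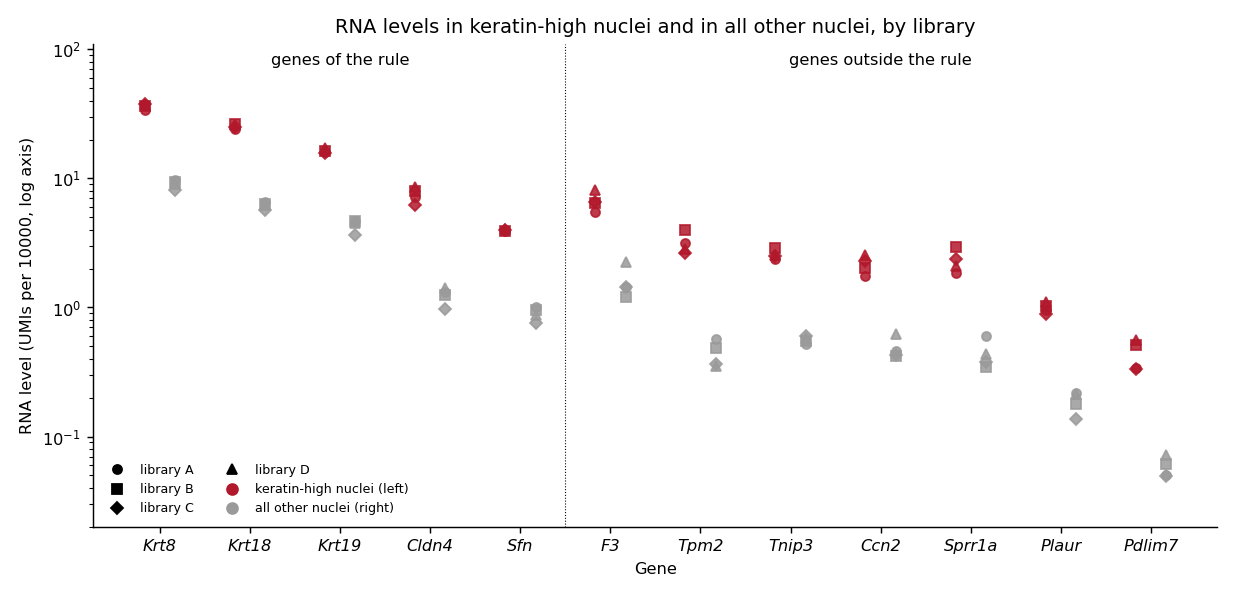
RNA level in UMIs per 10000 (log axis) of the 5 keratin programme genes and of 7 genes outside the rule, in keratin-high nuclei (red, left) and in all other nuclei (grey, right). Each point is 1 of the 4 libraries; for every gene drawn all red points lie above all grey points, as for Tpm2 with 2.64 to 3.97 in keratin-high nuclei and 0.350 to 0.572 in the other nuclei.

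A gene was called higher or lower when its rate ratio, keratin-high over other nuclei and stratified by library, was 2-fold or more and had the same direction in every library that held UMIs of the gene. Genes called tested are those with at least 200 UMIs over both classes, which were held against this limit without a statistical test. Among 12193 tested genes 363 were called higher (2.98%) and 633 lower (5.19%), and the median log2 ratio was 0.0024. The RNA of these same nuclei chose the classes, so these counts are a description.

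Pdlim7, a PDZ and LIM protein that binds actin filaments, had the highest ratio among genes found in 20% or more of keratin-high nuclei. Its level was 0.338, 0.515, 0.334 and 0.555 UMIs per 10000 in keratin-high nuclei of libraries A to D, against 0.0501, 0.0614, 0.0499 and 0.0718 in the other nuclei, a ratio of 7.33. Tpm2, a tropomyosin, had 3.15, 3.97, 2.64 and 2.86 UMIs per 10000 in keratin-high nuclei, against 0.572, 0.488, 0.365 and 0.350 in the other nuclei, a ratio of 7.25. For both genes the lowest keratin-high value was over 4 times the highest value in the other nuclei. Fn1, which codes for the matrix protein fibronectin, followed with a ratio of 6.40 (5.31 to 7.86 over libraries). Emp1, an epithelial membrane protein, had 0.449, 0.353, 0.579 and 0.705 UMIs per 10000 in keratin-high nuclei, against 0.0349, 0.0627, 0.129 and 0.121 in the other nuclei, a ratio of 5.51. Plaur, the receptor of the plasminogen activator urokinase, also reached 5.51 (4.47 to 6.49).

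Sprr1a, which codes for a small proline-rich protein of cornified epithelium, had 1.84, 2.95, 2.38 and 2.08 UMIs per 10000 in keratin-high nuclei, against 0.600, 0.348, 0.380 and 0.435 in the other nuclei. Its ratio was 5.32, and 79.0% of its UMIs in keratin-high nuclei lay in the 5% of these nuclei with most of them, so its level was carried by few nuclei. Ptgs2, the inducible cyclooxygenase, had a ratio of 4.73, and Ccn2, a matricellular protein and textbook YAP target, one of 4.55. Tnip3, which codes for a protein that restrains NF-kB signalling, had 4.44, and Fblim1, a filamin-binding adaptor of cell adhesions, 4.25. S100a14, a calcium-binding protein, had 4.15, and F3, the tissue factor that starts blood clotting, 4.13. F3 had 5.46, 6.50, 6.51 and 8.2 UMIs per 10000 in keratin-high nuclei, against 1.45, 1.20, 1.45 and 2.24 in the other nuclei, with no overlap. Palld, which codes for the actin-bundling protein palladin, had 4.08, and Tnfrsf23, a decoy receptor for the death ligand TRAIL, 4.04.

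**Figure D2:**
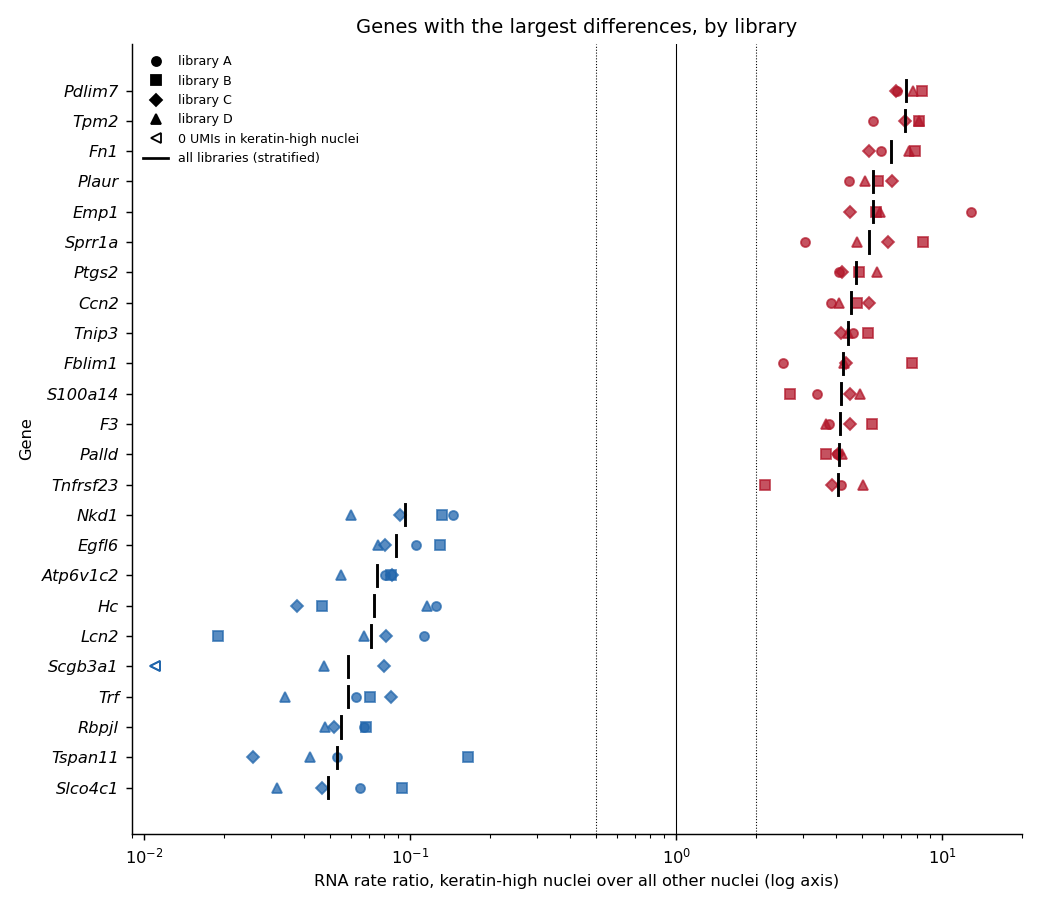
Rate ratio of RNA, keratin-high over other nuclei (log axis), of 14 genes with the highest and 10 with the lowest ratios that met the detection limit, 1 point per library and a bar for the ratio stratified by library. All points of the upper 14 genes lie above 2, from 2.16 for Tnfrsf23 in library B to 12.9 for Emp1 in library A, and all points of the lower 10 lie below 0.2.

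Among genes described for the transitional state outside the rule, 17 of 25 tested were called higher and 0 lower, with a median log2 ratio of 1.23. Besides Plaur, Sprr1a and Tnip3 they included S100a6, a calcium-binding protein, with 43.0, 46.4, 39.4 and 42.6 UMIs per 10000 in keratin-high nuclei, against 12.9, 13.4, 9.07 and 11.2 in the other nuclei (ratio 3.84). Clu, the secreted chaperone clusterin, had 47.5, 58.1, 72.5 and 67.4 UMIs per 10000 in keratin-high nuclei, against 20.5, 23.6, 33.0 and 32.1 in the other nuclei (ratio 2.20). Both genes were higher in every library without overlap of the classes. Nupr1, a stress-induced nuclear protein, had a ratio of 3.23, Lgals3, a galectin, 2.89, Krt7, a further simple keratin, 2.76, and Anxa1, an annexin, 2.68. Areg, which codes for the EGF receptor ligand amphiregulin, had a ratio of 2.61. Not every gene of the list was called. Cdkn1a, which codes for the cell cycle inhibitor p21, had 16.7 UMIs per 10000 in keratin-high and 14.1 in the other nuclei (ratio 1.18, 1.13 to 1.23), Cldn18, the main alveolar claudin, had a ratio of 0.980, and Hbegf, another EGF receptor ligand, 1.01.

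Genes of the actin and adhesion cytoskeleton were above 1 in all 26 tested cases, 8 were called higher and 0 lower, and their median log2 ratio was 0.79. After Pdlim7 and Tpm2 came Myl9, a myosin light chain of contractile cells, with 0.288, 0.554, 0.328 and 0.342 UMIs per 10000 in keratin-high nuclei, against 0.0743, 0.0653, 0.0520 and 0.0683 in the other nuclei (ratio 5.70). Flna, a filamin that crosslinks actin, had a ratio of 3.06, Zyx, an adaptor of adhesions, 2.79, Actn1, an alpha-actinin, 2.58, and Tpm4 2.22. The abundant actins Actb (1.74) and Actg1 (1.96) stayed under the 2-fold limit.

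Of 12 tested YAP targets, genes read out by the coactivator that responds to cell stretch, 3 were called higher and 0 lower, with a median log2 ratio of 0.56. Ankrd1, a muscle and stretch-response ankyrin repeat protein, had 0.432, 0.235, 0.405 and 0.394 UMIs per 10000 in keratin-high nuclei, against 0.0823, 0.0282, 0.0356 and 0.0713 in the other nuclei (ratio 7.23). It was found in 12.6% of keratin-high and 2.28% of the other nuclei. Ccn2 (4.55) and Nt5e, the cell surface enzyme CD73 (2.43), were the other two. Ccn1, a relative of Ccn2, had a ratio of 1.61, and Tead1, a DNA-binding partner of YAP, 0.836.

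Among integrin subunits 4 of 10 tested were called higher and 1 lower, with a median log2 ratio of 0.61. Itga2, a collagen receptor chain, had a ratio of 4.89, which ran from 2.58 in library D to 18.3 in library A. Itgb4, the hemidesmosome subunit, had 3.02, Itgb6, whose dimer with alpha v activates TGF-beta, 2.12, and Itga5, the fibronectin receptor chain, 2.06. Itga1 was called lower at 0.365. None of 15 tested laminin and basement membrane genes was called (median log2 0.0093). Of 17 genes of TGF-beta signalling 2 were called higher, among them Itgb6. The receptors Tgfbr1 (1.13) and Tgfbr2 (0.969) were not called. Among 6 tested genes of mesenchymal transition, Fn1 and Cald1, the actin regulator caldesmon (3.32), were called higher, and Vim, which codes for vimentin, had 0.0538 UMIs per 10000 in keratin-high and 0.0554 in the other nuclei.

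Genes of p53 signalling and cell cycle inhibition held 4 higher and 0 lower calls among 22 tested, with a median log2 ratio of 0.29. Pmaip1, which codes for the cell death protein Noxa, had 0.259, 0.211, 0.188 and 0.283 UMIs per 10000 in keratin-high nuclei, against 0.0313, 0.0218, 0.0558 and 0.0554 in the other nuclei (ratio 4.87). Cdkn2a, the locus of p16 and Arf, had a ratio of 2.21, Tnfrsf10b, a TRAIL death receptor, 2.18, and Gdf15, a secreted stress factor, 2.10. Without library C this list held 2 higher calls. Mdm2, the p53 target that degrades p53, had a ratio of 1.02. Of 10 tested cell cycle genes 1 was called higher, the replication helicase subunit Mcm3 (2.39).

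Transcription factors of the AP-1 family, which bind the sequence TGANTCA, held 2 higher calls and 1 lower call among 11 tested. Fosl1 had 0.144, 0.142, 0.178 and 0.195 UMIs per 10000 in keratin-high nuclei, against 0.0456, 0.0499, 0.0407 and 0.0669 in the other nuclei (ratio 3.41), and Maff, a small Maf protein, had a ratio of 2.30. Fos went the other way, with a ratio of 0.466. Of 16 tested EGF receptor ligands, receptors and feedback genes, 2 were called higher, the ligand genes Areg (2.61) and Ereg, for epiregulin (2.57), and the receptor genes Egfr (0.978) and Erbb3 (1.00) were not. Of 17 inflammatory NF-kB genes 5 were called higher (Ptgs2, Tnip3, Cxcl16, Tnfaip3 and Cxcl1) and 2 lower (Lcn2 and Csf2). Of 14 interferon genes 3 were called higher, Oas1a (2.53), Isg15 (2.10) and Irf7 (2.01).

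Genes of hypoxia response and glycolysis held 8 higher and 0 lower calls among 18 tested, with a median log2 ratio of 0.88. Ndrg1, induced by low oxygen, had a ratio of 3.71, and the glycolytic enzyme genes Pfkp (2.31), Pgk1 (2.14), Gapdh (2.12), Eno1 (2.07), Tpi1 (2.04) and Hk2 (2.03) lay just above the limit, beside the hypoxia-induced Ankrd37 (2.21). Gapdh had 8.94, 9.59, 10.5 and 9.38 UMIs per 10000 in keratin-high nuclei, against 4.22, 4.58, 4.68 and 4.73 in the other nuclei. Vegfa (0.783) and Hif1a (0.977) were not called. Of 15 stress genes 2 were called higher, the small heat shock gene Hspb1 (3.35) and Hspa1b (2.27). Of 3 tested keratins outside the rule and the lists above, Krt80 was called higher (3.02), and of 6 Notch genes 0 were called (median log2 -0.15). Among claudins and junction genes Cldn6 (4.01) and Cldn23 (3.74) were called higher and Cldn10 (0.167) lower, out of 16 tested. Against nuclei high in both the keratin and type I programmes 0 of 15 were called. Against the remaining classes under the same Sox9 and airway limits Cldn6 and Cldn23 were again called higher, and Cldn10 was not called lower.

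Lower genes centred on ATII cells, which the rule fixes in part. It kept nuclei high in the type II programme out of the keratin-high nuclei. The 1715 nuclei high in type II genes only stayed among the other nuclei. Of 20 tested ATII genes outside the rule 16 were called lower and 0 higher, with a median log2 ratio of -2.28. Sftpc, surfactant protein C, had 144, 112, 97.47 and 74.0 UMIs per 10000 in keratin-high nuclei, against 502, 523, 455 and 499 in the other nuclei (ratio 0.205). Etv5, a transcription factor that maintains ATII cells, had a ratio of 0.136, Cebpa, another such factor, 0.298, and Lyz2, a lysozyme gene of mouse ATII cells and macrophages, 0.0680. Ctsh, a protease that processes surfactant proteins, was not lower, with 17.5 UMIs per 10000 in keratin-high and 15.2 in the other nuclei. Of 23 genes of fatty acid and cholesterol synthesis 9 were called lower and 1 higher, with a median log2 ratio of -0.81. Against nuclei high in both the keratin and type I programmes 0 of 21 were called lower and 0 higher. The calls were 0 lower and 1 higher of 21 against nuclei high in type I genes only. They were 2 lower and 1 higher of 22 against the 2085 nuclei high in no programme. Among all 10687 genes tested against that class 398 were called lower and 243 higher. Scd1, the stearoyl-CoA desaturase, had 8.08, 6.55, 7.33 and 9.55 UMIs per 10000 in keratin-high nuclei, against 25.7, 30.4, 33.3 and 35.7 in the other nuclei (ratio 0.248), and Fasn, fatty acid synthase, a ratio of 0.209. The sterol enzyme genes Hmgcs1 (0.991) and Sqle (1.29) were not called, and Elovl6, a fatty acid elongase, was called higher at 2.72.

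MHC class II genes, which mouse ATII cells express, held 6 lower calls among 7 tested, with a median log2 ratio of -2.69. Against nuclei high in both the keratin and type I programmes 0 of 6 were called. The lower calls were 5 of 6 against nuclei high in type I genes only and 4 of 7 against nuclei high in no programme. H2-Aa had 0.0782, 0.235, 0.119 and 0.0836 UMIs per 10000 in keratin-high nuclei, against 0.799, 1.02, 0.896 and 0.864 in the other nuclei (ratio 0.131), and their shared regulator Ciita had a ratio of 0.145. Of 23 tested lung epithelial transcription factors 6 were called lower and 0 higher: Etv5, Elf5, Cebpa, Foxp2, Id2 and Foxp1. Nkx2-1, the master factor of lung epithelium, had 2.71, 2.64, 2.27 and 2.37 UMIs per 10000 in keratin-high nuclei, against 4.63, 4.73, 3.88 and 4.21 in the other nuclei (ratio 0.575), lower in every library but short of the 2-fold limit. In the WNT list, 4 of 13 tested were called lower, among them the targets Nkd1 (0.0960), Notum (0.275) and Axin2 (0.429), and 1 higher, the ligand gene Wnt4 (2.76). Against nuclei high in both the keratin and type I programmes 0 of 8 were called. The lower calls were 1 of 9 (Nkd1) against nuclei high in type II genes only and 2 of 9 (Rnf43 and Wnt3a) against those high in type I genes only. Against nuclei high in no programme 1 of 10 was called lower (Nkd1). Notum and Axin2 were called lower in none of these.

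The lowest ratios, for genes found in 20% or more of the other nuclei, were those of Slco4c1, an organic anion transporter (0.0493), the tetraspanin Tspan11 (0.0533), the transcription factor Rbpjl (0.0550), transferrin Trf (0.0584) and the airway secretoglobin Scgb3a1 (0.0585). Lcn2, lipocalin 2 (0.0712), complement component Hc (0.0733), the proton pump subunit Atp6v1c2 (0.0749), the secreted protein gene Egfl6 (0.0887) and Nkd1 followed. The ratio of Scgb3a1 is fixed by the rule, which removes nuclei rich in it. With the other nuclei held to the same limits it was 0.885 and no longer called. Scgb3a1 had no UMI in library A in either class and was at 0 in keratin-high and 0.00128 per 10000 in the other nuclei of library B, so its values rest on libraries C and D.

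ATI genes outside the rule did not move as a group against all other nuclei pooled. Of 22 tested, 1 was called higher (Krt7) and 2 lower (Sema3a and Limch1), with a median log2 ratio of -0.04. The classes of other nuclei differed. The calls were 12 higher and 0 lower of 22 against nuclei high in type II genes only (median log2 1.1). They were 0 higher and 10 lower of 22 against nuclei high in type I genes only (median log2 -0.89). Nuclei high in both the keratin and type I programmes gave 0 higher and 6 lower of 21 (median log2 -0.67). Those high in no programme gave 1 higher and 2 lower of 22 (median log2 0.16). Sema3a, a guidance factor, had 0.535, 0.343, 0.421 and 0.193 UMIs per 10000 in keratin-high nuclei, against 1.95, 2.04, 1.64 and 1.46 in the other nuclei (ratio 0.213). Emp2 (1.38) and Gprc5a (1.45), genes of ATI membranes, stayed between 1 and 2. Among the ATI genes of the rule Rtkn2 (0.163) was lower by more than Ager (0.550) or Hopx (0.686), and Clic5 (1.00) and Lmo7 (1.14) were level with the other nuclei although the rule removed the nuclei richest in them.

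**Figure D3:**
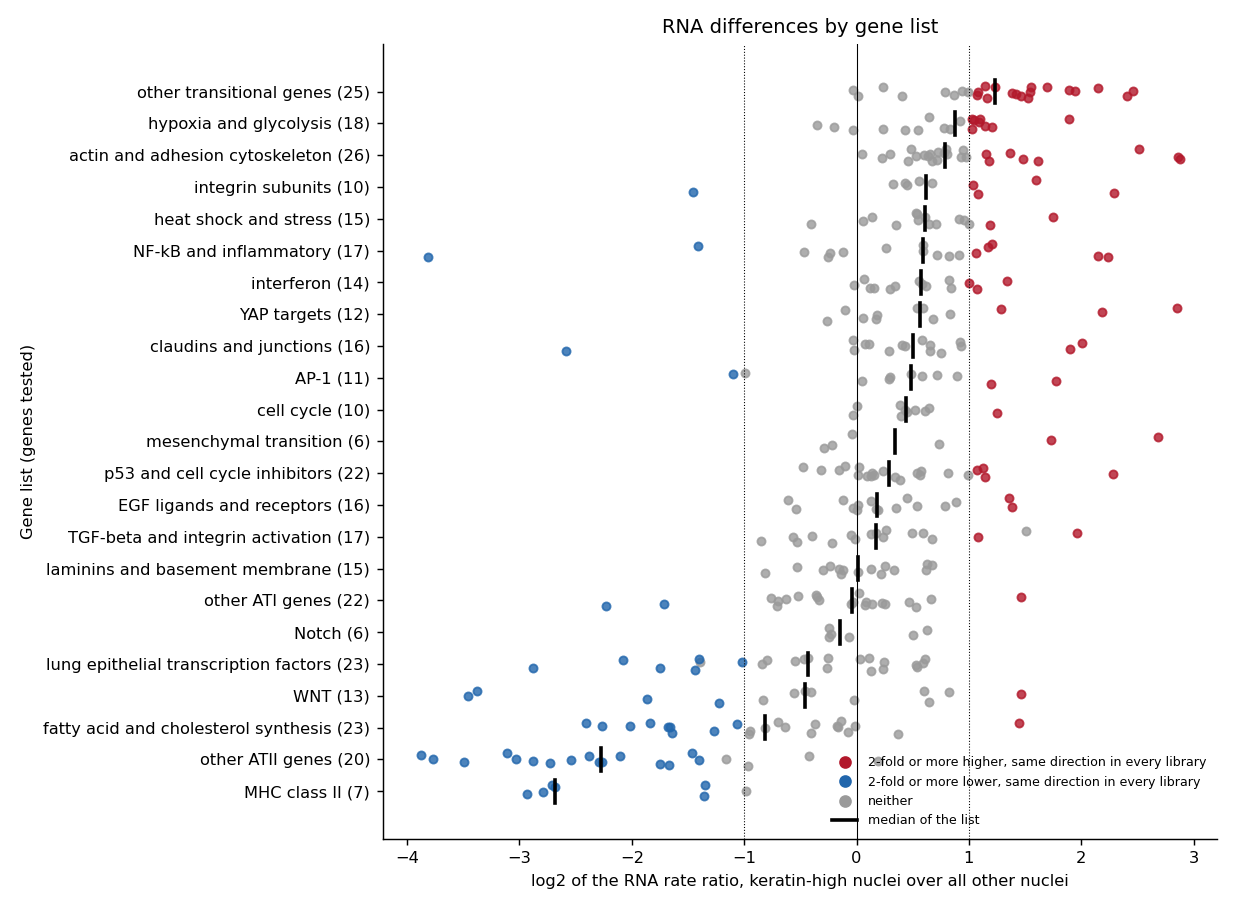
log2 rate ratio of RNA, keratin-high over other nuclei, for the tested genes of 23 lists (number tested in brackets), sorted by the median of each list (black bar). Red and blue points were called higher or lower, grey points were not, and dotted lines mark 2-fold; the list medians run from -2.69 for MHC class II to 1.23 for the other transitional genes.

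Markers of other cell types summed to at most 8.04 UMIs per 10000 per list and library in keratin-high nuclei. Summed over 12 airway secretory markers the level was 2.02, 1.47, 3.96 and 8.04 UMIs per 10000 in keratin-high nuclei of libraries A to D, against 2.72, 2.69, 21.9 and 54.6 in the other nuclei. No marker of that list was at 0 among keratin-high nuclei, 8 of 11 tested were called lower, and the rule itself used Scgb3a1 and Bpifa1. Against classes held to the same limits the calls were otherwise. They were 3 higher (Bpifa1, Cyp2f2 and Cbr2) and 1 lower (Sec14l3) of 8 against nuclei high in both the keratin and type I programmes, 3 higher (Scgb1a1, Bpifa1 and Aldh1a1) and 0 lower of 9 against nuclei high in type II genes, 1 higher (Bpifa1) and 1 lower (Sec14l3) of 8 against nuclei high in type I genes, and 0 of 9 against nuclei high in no programme. Markers of basal cells summed to 0.0535, 0.0343, 0.209 and 0.0717 UMIs per 10000 in keratin-high nuclei of libraries A to D, against 0.0170, 0.0166, 0.0579 and 0.0369 in the other nuclei, so the sum was higher in every library. It held 184 UMIs in keratin-high nuclei, 98 of them from Krt17, and 301 in the other nuclei, and none of the 11 markers had enough UMIs to be tested. Krt5, which defines basal cells, had 0 UMIs in keratin-high nuclei and 2 in the other nuclei. Ciliated markers summed to 0.313, 0.304, 1.21 and 1.30 in keratin-high nuclei of libraries A to D, against 0.450, 0.486, 0.572 and 1.02 in the other nuclei. The sum was thus lower in libraries A and B and higher in C and D. Of 8 tested 7 had ratios above 1 (median log2 0.74), with 1 called higher (Rsph1) and 1 lower (Dnah11). Against nuclei high in no programme 2 of 8 had ratios above 1, and 0 were called higher and 2 lower. Neuroendocrine and tuft markers summed to 0.348 to 0.688 in keratin-high and 0.242 to 0.494 in the other nuclei, higher in every library. Gut markers summed to 0.0494 to 0.137 in keratin-high and 0.0385 to 0.281 in the other nuclei. Cdx2, Gkn1 and Gkn2 were at 0 in keratin-high nuclei, and Tff3 and Gkn1 in the other nuclei. Mesenchymal markers summed to 0.649 to 0.679 in keratin-high and 1.29 to 1.49 in the other nuclei, and endothelial markers to 0.0717 to 0.147 in keratin-high and 0.113 to 0.126 in the other nuclei. Immune markers summed to 0.162 to 0.466 in keratin-high and 0.960 to 3.19 in the other nuclei. Of 3 tested immune markers Lyz2 was called lower and Cd68, a lysosomal protein abundant in macrophages, higher. Cd68 had 0.119, 0.0932, 0.158 and 0.110 UMIs per 10000 in keratin-high nuclei, against 0.0376, 0.0384, 0.0383 and 0.0419 in the other nuclei (ratio 3.27), and it was also called higher against each of the other classes compared. The macrophage markers Marco and C1qa were at 0 in keratin-high nuclei but not in the other nuclei, as were Col1a2, Col3a1 and Cdh5, and Kdr was at 0 in both. Of 8 RNA quality genes 0 were called, among them Malat1 with 484 UMIs per 10000 in keratin-high and 502 in the other nuclei. The single tested mesothelial marker, Msln, was called higher (2.92) and is also a gene of the transitional list, and Uchl1, of the neuroendocrine list, was called higher with a ratio of 3.61. Mesothelial markers summed to 0.898 to 1.57 in keratin-high and 0.285 to 0.678 in the other nuclei, with Upk3b, Lrrn4 and Uroc1 at 0 in keratin-high nuclei. The part of these markers in the results above was not tested.

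Nuclei high in both the keratin and the type I programme were the most alike class. There were 526 of them under the same Sox9 and airway limits. Among 9352 genes tested between the classes, 120 (1.28%) were called higher in keratin-high nuclei and 66 (0.706%) lower, and without library C the first count was 79. The keratin sum was similar, at 90.1 UMIs per 10000 in keratin-high nuclei and 82.5 in nuclei high in both programmes. Of the keratin programme, Cldn4 stood apart most, with 7.37 in keratin-high nuclei and 4.29 in nuclei high in both (ratio 1.72, 1.64 to 1.78 over libraries), while Krt8 had a ratio of 1.01 and Krt19 one of 0.899.

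The genes most in excess over nuclei high in both programmes were Sorbs2, an adaptor of actin and adhesions (12.2), and Cd14, the lipopolysaccharide co-receptor (7.11). They were followed by Gdf15 (3.44), Tnfrsf23 (3.44), Ceacam1, a cell adhesion molecule (3.34), and Emp1 (3.08). Ceacam1 had 1.00 UMIs per 10000 in keratin-high nuclei and 0.299 in nuclei high in both, with library ratios of 1.68 to 5.60. Emp1 had 0.570 in keratin-high nuclei and 0.173 in nuclei high in both, with library ratios of 2.38 to 6.52. Of the transitional list 4 of 25 tested were called higher (Ndrg1, Nupr1, Gdf15 and Sprr1a), and Plaur (1.38), S100a6 (1.09) and Areg (1.01) were not. Pdlim7 was the 1 actin gene of 26 called higher (2.97), while Tpm2 (1.25) and Myl9 (0.847) were not. The lists of p53 genes (Pmaip1 and Gdf15) and YAP targets (Ankrd1 and Crim1) had 2 higher calls each. Of 17 tested genes of hypoxia response and glycolysis 1 was called higher (Ndrg1) and 0 lower, with a median log2 ratio of 0.069. None of 11 tested AP-1 genes and none of 12 interferon genes was called. Of 13 genes of the EGF list 1 was called higher (Dusp4) and 0 lower. The NF-kB list held 1 higher (Nfkbiz) and 1 lower call (Il1r1) of 14. Among 9 integrin subunits 2 were called higher (Itga2 and Itga5) and 0 lower.

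Among the genes lower than in nuclei high in both programmes were Sec14l3, a lipid-binding protein (0.200), Sema3a (0.242), the elastic fibre gene Fbln5 (0.290), Itm2a (0.314) and Cavin2, a caveolar coat protein (0.317). Of 21 tested ATI genes outside the rule 6 were called lower (Cav1, Col4a3, Sema3a, Akap5, Limch1 and Scnn1g) and 0 higher, and all 21 had ratios under 1, with a median log2 ratio of -0.67 against 0.045 over all genes tested. ATII genes did not separate these classes the same way: 4 of 17 tested were called higher in keratin-high nuclei (Sftpa1, Lyz1, Chil1 and Fabp5) and 0 lower.

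**Figure D4:**
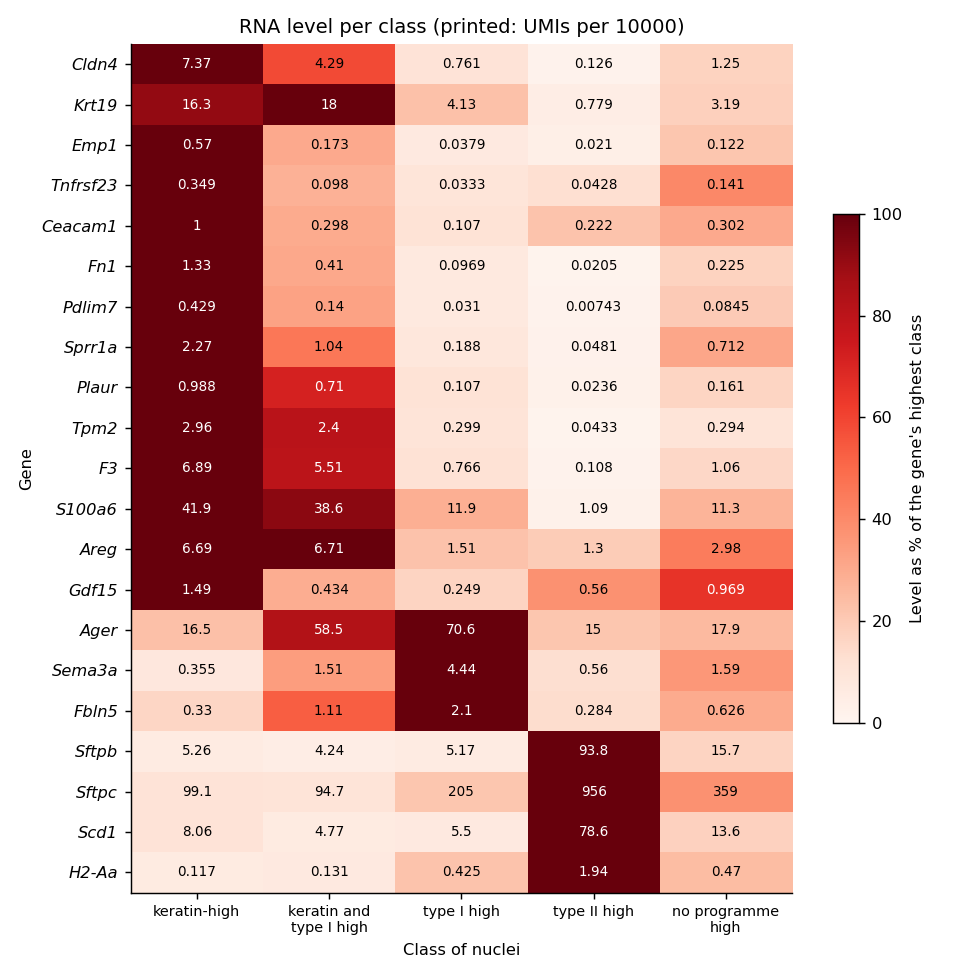
RNA level of 21 genes in 5 classes of nuclei, with the UMIs per 10000 printed in each cell and the colour giving the level as a percentage of that gene's highest class. The genes were picked after their values were seen; Emp1, Fn1 and Pdlim7 are highest in keratin-high nuclei (0.570, 1.33 and 0.430), S100a6 and Areg are close between the classes with a high keratin sum, and Ager, Sema3a and Fbln5 are highest in nuclei high in type I genes.

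Set against the 1228 nuclei high in type I genes only, 488 of 9997 tested genes (4.88%) were called higher in keratin-high nuclei and 449 (4.49%) lower. Emp1 (14.3), Pdlim7 (13.6), Fn1 (12.7), Sprr1a (12.2), Ptgs2 (11.4) and Tpm2 (10.2) had the highest ratios. Sema3a (0.0826), Phactr1, a regulator of actin (0.0660), Galnt18 (0.0784) and Mrc2, a collagen-binding receptor (0.0990), were among the lowest, as were Sec14l3 (0.104) and Rbpjl (0.107). Of the other ATI genes 10 of 22 were called lower and 0 higher, and of the actin genes 11 of 26 higher and 0 lower. Set against the 1715 nuclei high in type II genes only, 1091 of 10538 genes (10.4%) were called higher and 792 (7.52%) lower. Tpm2 (68.0), F3 (63.2), Fn1 (62.8), Pdlim7 (57.7), Pak3, a signalling kinase (51.0), and Sprr1a (47.1) had the highest ratios, and Adam19 (0.00687), Lrg1 (0.00830), Slco4c1 (0.0195), Tspan11 (0.0196), Ly6c2 (0.0212) and Lyz2 (0.0247) the lowest. Of the other ATII genes 18 of 20 were called lower, of the actin genes 20 of 26 higher, and of the other transitional genes 21 of 25 higher. Of the other ATI genes 12 of 22 were called higher and 0 lower in this comparison.

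Levels within keratin-high nuclei differed little between the libraries for most genes. Over 7163 genes found in 20% or more of keratin-high nuclei, the median ratio of the highest to the lowest library was 1.23, and 82 genes (1.14%) exceeded 2-fold. Scgb3a1, Sox9, Cebpb, Dapk3, Fn1 and Tmem238 differed most. Cebpb had 1.26 UMIs per 10000 in library A and 0.155 to 0.216 in B to D in keratin-high nuclei, against 1.16 in A and 0.169 to 0.202 in B to D in the other nuclei, so library A stood apart in both classes. Fn1 had 0.506, 0.785, 1.26 and 2.04 UMIs per 10000 in keratin-high nuclei of libraries A to D, against 0.0859, 0.0998, 0.237 and 0.271 in the other nuclei. Its ratio between the classes lay between 5.31 and 7.86 in each library.

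The ATAC counts of the same nuclei were not used to choose them. Among 83387 peaks with at least 200 counts, 8222 (9.86%) were called more open in keratin-high nuclei and 7138 (8.56%) less open, at 1.5-fold with the same direction in every library, and the median log2 ratio was -0.031. Without library C 5010 peaks were called more open, and without library D 5374. Promoter peaks were 14.5% of the tested peaks, 2.63% of those more open and 2.48% of those less open, while peaks within genes and between genes held the rest. Of promoter peaks 1.79% were more open and 1.47% less open, against 13.1% and 9.61% of peaks between genes. Differences in openness thus lay mostly away from promoters.

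The peak with the highest ratio lay between genes on chromosome 16 at 91234551 to 91235415, 777 bp from Gm52261, with a ratio of 5.94 (2.21 to 6.90 over libraries). The next was on chromosome 5 at 43072079 to 43073024, 33545 bp from Gm43700 (5.81, 4.46 to 7.67). Further peaks lay within Gm2895 (5.63), Scp2, a sterol carrier gene (5.53), Runx2, a transcription factor known from bone (5.31), and Kdm3a, a histone demethylase gene induced by hypoxia (5.12), and near Csgalnact1 (5.48) and Gm5319 (5.12). The lowest ratio was that of a peak within Gm5544 on chromosome 3 (0.0836), which had 4 counts in keratin-high and 245 in the other nuclei. A peak on chromosome 5 at 53072435 to 53073172, 771 bp beyond the end of the phosphate transporter gene Slc34a2, had a ratio of 0.0983, with 7 counts in keratin-high and 361 in the other nuclei. Slc34a2 RNA, used by the rule, had a ratio of 0.0280. Peaks within Actl6a (0.108) and Kcnh8 (0.128) were among the 5 lowest, and 1 of the 5 is not described here.

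Openness at genes went in the same direction as their RNA for most called genes. Of 345 higher genes with peaks over the gene or 2000 bp to either side, 283 (82.0%) were more open in keratin-high nuclei, and of 575 lower genes 465 (80.9%) were less open, against 34.2% more open and 65.8% less open among all 11582 tested genes with peaks. The size of the difference was small: the median ATAC ratio was 1.12 for the higher genes, 0.905 for the lower genes and 0.963 for all. For promoter peaks alone the median was 1.06 for the higher genes, 0.895 for the lower genes and 0.951 for all. By promoter peaks 70.6% of 248 higher genes were more open and 84.4% of 404 lower genes less open. Over all 8939 tested genes with promoter peaks these shares were 26.7% and 73.3%.

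Promoter values were at hand for 4 of the 5 keratin programme genes, all but Krt19. The ATAC ratio at the promoter peak was 1.17 for Krt8 (0.943 to 1.30 over libraries), 1.14 for Krt18 (1.08 to 1.40) and 1.20 for Sfn (1.07 to 1.65), and 1.65 for Cldn4 (1.52 to 2.10), the 1 of them called more open. Within 50 kb of the genes, 4 of 25 tested peaks were more open and 0 less open around Krt8, 4 and 1 of 24 around Krt18, 4 and 0 of 15 around Krt19, 6 and 1 of 18 around Cldn4 and 2 and 0 of 14 around Sfn. Over all 83387 tested peaks 9.86% were more open and 8.56% less open, so each of these counts rests on few peaks. Krt8 and Krt18 are neighbours on chromosome 15 (Krt8 at 101996711 to 102004342, Krt18 at 102028216 to 102032026, GRCm38.p6) and share peaks in these windows. The promoter ratio, keratin-high over other nuclei, was larger than that of Cldn4 for Ankrd1 (2.74), Tnip3 (2.71), Sprr1a (2.36), Emp1 (1.91) and S100a6 (1.89). Sprr1a had 0.168, 0.225, 0.185 and 0.177 ATAC counts at its promoter per 10000 counts in peaks in keratin-high nuclei of libraries A to D, against 0.0751, 0.104, 0.0733 and 0.0772 in the other nuclei, again without overlap. Areg (0.892) and Ptgs2 (1.05), called higher in RNA, had promoters that were not more open. The promoter peak of Sftpb had a ratio of 0.564 (0.502 to 0.735) and was called less open.

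**Figure D5:**
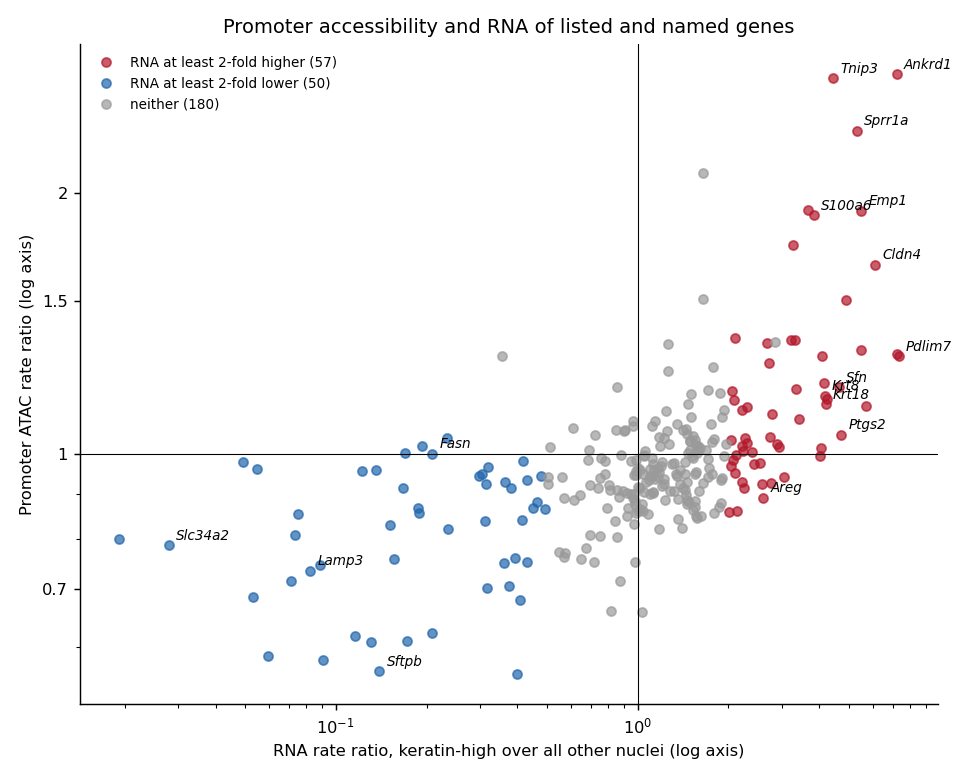
ATAC rate ratio of the promoter peak against the RNA rate ratio, keratin-high over other nuclei, both on log axes, 1 point per listed or named gene with a promoter peak. Of 57 genes called higher in RNA 42 lie above 1 in ATAC, and of 50 called lower 46 lie below 1. Of 180 called neither 54 lie above 1 and 126 below, so most genes lie below 1. The promoter ratios run from 0.559 to 2.74 while the RNA ratios run from 0.0192 to 7.33.

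Promoter windows were read from RefSeq (GRCm38.p6), 250 bases before to 50 after each listed start. The letters TGANTCA, bound by AP-1 dimers such as those of Fosl1, are their own reverse complement, so a search of both strands gives the same matches. They occurred in 44 of 369 windows of the higher genes (11.9%), 6.64% of windows of the lower genes, 5.19% of windows of all tested genes and 7.81% of all windows in the table. GGAATG, the core letters bound by TEAD factors, occurred in 14.6%, 14.9%, 12.3% and 14.7% of the same sets, and CAAGTG, bound by NKX2-1, in 11.1%, 13.6%, 11.1% and 13.6%, both strands counted. The CArG letters CCWWWWWWGG, with W for A or T, occurred in 2.98% (11 of 369 windows), 2.21%, 1.28% and 1.63%. AP-1 was thus not the only motif found more often in windows of the higher genes than of all tested genes. A match is only a description of letters in this window. The windows below come from a few genes picked by hand, and genes were not ranked by their matches. Cldn4, Sprr1a and Emp1 had promoter peaks called more open and windows with 2 AP-1 matches. Krt8 is a keratin programme gene without a match, and its promoter, with a ratio of 1.17, was not called more open. Sftpb is an ATII promoter that was less open and holds 1 match. Capitals mark TGANTCA, and each sequence runs 5′ to 3′ on the strand of its gene: Cldn4 on the minus strand at chr5:134946885-134947184, Sprr1a on the minus strand at chr3:92485832-92486131, Emp1 on the plus strand at chr6:135362681-135362980 (the first of 2 listed starts), Krt8 on the minus strand at chr15:102004293-102004592 and Sftpb on the plus strand at chr6:72304360-72304659.
Cldn4: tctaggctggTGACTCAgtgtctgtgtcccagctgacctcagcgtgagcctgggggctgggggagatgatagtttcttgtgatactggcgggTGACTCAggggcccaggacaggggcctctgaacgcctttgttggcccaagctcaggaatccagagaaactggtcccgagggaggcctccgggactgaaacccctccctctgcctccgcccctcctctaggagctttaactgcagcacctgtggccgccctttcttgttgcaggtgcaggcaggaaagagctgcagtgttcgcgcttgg
Sprr1a: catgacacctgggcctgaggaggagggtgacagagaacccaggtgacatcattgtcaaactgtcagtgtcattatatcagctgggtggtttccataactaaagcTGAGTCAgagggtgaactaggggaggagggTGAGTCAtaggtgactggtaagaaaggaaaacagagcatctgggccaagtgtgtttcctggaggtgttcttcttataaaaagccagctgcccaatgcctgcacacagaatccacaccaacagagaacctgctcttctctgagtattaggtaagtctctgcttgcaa
Emp1: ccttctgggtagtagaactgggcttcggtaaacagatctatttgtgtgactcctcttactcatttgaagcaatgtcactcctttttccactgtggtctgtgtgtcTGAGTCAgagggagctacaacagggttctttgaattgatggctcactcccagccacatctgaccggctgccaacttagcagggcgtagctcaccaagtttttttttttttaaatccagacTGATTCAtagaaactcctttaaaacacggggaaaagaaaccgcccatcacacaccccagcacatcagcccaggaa
Krt8: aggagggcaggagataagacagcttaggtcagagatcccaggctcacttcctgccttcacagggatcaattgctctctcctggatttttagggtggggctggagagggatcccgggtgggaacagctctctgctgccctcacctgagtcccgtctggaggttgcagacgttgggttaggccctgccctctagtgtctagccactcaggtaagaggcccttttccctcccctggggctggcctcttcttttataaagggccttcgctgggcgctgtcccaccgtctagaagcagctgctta
Sftpb: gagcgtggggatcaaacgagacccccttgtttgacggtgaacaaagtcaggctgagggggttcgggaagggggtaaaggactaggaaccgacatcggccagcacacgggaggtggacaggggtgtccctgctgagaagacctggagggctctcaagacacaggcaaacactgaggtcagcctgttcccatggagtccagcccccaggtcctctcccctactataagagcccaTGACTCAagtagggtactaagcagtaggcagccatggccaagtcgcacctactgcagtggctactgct

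The AP-1 letters began 240 and 158 bases before the start in Cldn4, 146 and 116 before it in Sprr1a, 145 and 25 before it in Emp1 and 18 before it in Sftpb. The Sftpb promoter, with these letters, was less open in keratin-high nuclei, so the letters were present at promoters that differed in both directions. Krt18, Sfn, S100a6, Pdlim7 and Tpm2 had no match in their windows and Plaur had 1.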

How the data were processed

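RNA and ATAC were measured in the same nuclei. The deposited matrices hold counts: UMI counts for 32285 genes and ATAC counts for 116068 peaks in each nucleus, not normalized. The submitters' processing notes name Signac 1.10.0, Seurat 4.3.0 and Cell Ranger 6.0.1, beside GRCm38 and mm10 as builds, without roles. How peaks were called and nuclei filtered is not given in the sources used. The authors pooled all libraries in each matrix.

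Keratin-high nuclei were chosen by the sums described in the report among nuclei with at least 1000 UMIs, with the top 25% taken over all libraries. Levels are UMIs summed over nuclei per 10000 UMIs, with exact Poisson 95% intervals. Ratios are Mantel-Haenszel rate ratios over the 4 libraries. Genes with at least 200 UMIs in the compared classes were tested against a 2-fold limit, and peaks with at least 200 counts against a 1.5-fold limit, both with the same direction in every library that held counts of the feature; with nuclei not assigned to replicates no p-value was computed. The members and the 37 gene lists were chosen with earlier results of these data known. Genes were named by rank: the 15 highest and 10 lowest ratios, the 6 highest and 6 lowest per class comparison, the 4 most abundant and 3 most changed genes of each list, and the 8 most and 5 least open peaks; further list genes were named after their values were seen. A few genes that these ranks name are not reported here. Of 529 listed genes 526 were in the matrix. No doublet caller was run; leaving out the 5% of nuclei with most UMIs was an alternative. Levels are not corrected for gene length and are not compared between genes. Free RNA in droplets gives UMIs in nuclei that do not express a gene.

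Without a genome, a motif search of peak sequences was replaced by RefSeq promoter windows (GRCm38.p6), matched by symbol for 9508 tested genes (78.0%). Peak positions are as deposited. Steps ran in Python 3.11.15 with numpy 2.4.6, scipy 1.17.1, pandas 2.3.3 and matplotlib 3.10.9, and the ratio code was tested on simulated data.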

Additional observations from a re-analysis of the deposited data

How the results depend on the processing

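No paired analysis was possible because the barcodes carry no sample or replicate number with which to pair labelled samples; classes of nuclei were compared within each library. The share of keratin-high nuclei (16.3%) was 6.72% with the top 10% of the keratin sum, 17.4% without the Sox9 and airway limits, 14.8% on counts thinned to 1000 UMIs, and 15.8% to 17.4% with 1 library left out. With genes of at least 30 UMIs, 622 genes were called higher and 1104 lower than in the other nuclei, and at 1.5-fold 1174 and 1411. Against nuclei high in both programmes the higher and lower counts were 47 and 41 with the top 10% of the keratin sum, 76 and 43 on thinned counts, 537 and 124 at 30 UMIs, and 363 and 262 at 1.5-fold; the higher count was 79 to 130 with 1 library left out, lowest without C. Against nuclei high in type II genes 1833 were higher at 30 UMIs, and 2309 higher and 1495 lower at 1.5-fold. Against nuclei high in type I genes 988 were higher and 707 lower at 30 UMIs, and 1161 and 1082 at 1.5-fold. At 2-fold 3391 peaks were more open and 2628 less open; with 1 library left out 5010 to 8727 were more open. Within 10 kb, 84.6% of lower genes were less open. Of 450 values of 30 named genes under the alternatives, 449 kept their call and direction and 0 reversed; the exception was Scgb3a1 (0.885 with the other nuclei under the same limits). Of 300 list counts 8 moved by over 1.5 times, among them the loss of Itga1 and Elovl6 with the top 10% of the keratin sum. Among 18 settings, leaving out barcodes shared between libraries was chosen after seeing the data and moved no count by over 1.5 times. The causes of these differences were not tested. Depth limits genes with few UMIs: library ratios then rest on few counts, and a gene at 0 may still be expressed.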
